A study of Abies pinsapo with 24 samples.

Results

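Auxin, gibberellin and cytokinin are the plant hormones that set cell division, cell elongation and organ growth, and the features described here are those of a Spanish fir (Abies pinsapo) transcriptome whose best protein match is named for these pathways. A feature was taken when its best hit came from a land plant and the hit's protein name contained Auxin, SAUR, Indole-3-acetic acid, Gibberellin, GASA, DELLA, Snakin, Cytokinin or the family name of the plant response regulators, leaving out 4 hits to the APRR clock proteins. The rule still took in 4 hits to PRR73, a clock protein of the same family in rice, none of which had a count. The choice used names and no measured value, and it gave 193 of the 51046 features in the count table. They lie on 137 reference sequences, 191 of them start at base 1 of their sequence, and they share 69 hit names, most from Arabidopsis thaliana (109 features) or rice (52 features) and 6 from Pinus taeda.

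The study sequenced messenger RNA of 2 organs, needles and roots, from wild adult trees aged 30 to 50 years in a mountain range of southern Spain. The groups were spring (May 2023) and autumn (September 2022) harvests at Ronda, the upper ecotone at 1700 to 1800 m, and at Yunquera, the lower ecotone at 1100 to 1200 m, with 3 trees at each site and 24 libraries in 8 groups. The labels name no mutant, treatment or clone, and the replicate numbers name 6 independent trees, each sampled for both organs in both seasons. Each season is 1 harvest month of 1 year, so season, year and date cannot be told apart, and root RNA was extracted with a kit that was not used for needles, so organ and extraction method cannot be told apart either.

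Auxin is sensed by TIR1/AFB F-box receptors that remove Aux/IAA repressors and so free auxin response factors (ARFs) to act on their target genes, while AUX/LAX and PIN proteins carry the hormone into and out of cells and GH3 enzymes store it as amino acid conjugates. Active gibberellin, whose precursors are made by 20-oxidases, binds the GID1 receptor, which sends the growth-restraining DELLA proteins to breakdown. Cytokinin is activated by LOG enzymes, hydroxylated by CYP735A, degraded by cytokinin dehydrogenases (CKX) and signalled through a phosphorelay that ends in response regulators (ARRs), of which the type-A members damp the signal and the type-B members are transcription factors.

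Libraries held 13355301 to 27427263 assigned counts. Levels are given as CPM, counts scaled to a common library size, with TMM factors that correct for library composition. Photosynthesis transcripts, the check on organ, took 2.40 to 5.04% of each of 11 needle libraries, against 0.0314 to 0.104% of each of 11 from roots. The library labelled spring needles, Ronda, replicate 3 held 0.0262% and the library labelled spring roots, Ronda, replicate 2 held 2.77%, each against its label. Both were set aside, which left 22 libraries (5 in spring and 6 in autumn for each organ), and counts of calls with them put back are given beside the results. The hormone features together took 0.235 to 0.270% of counts in spring needles, 0.204 to 0.242% in autumn needles, 0.248 to 0.387% in spring roots and 0.274 to 0.439% in autumn roots.

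Of the 193 features, 97 had at least 1 count in the 22 libraries and 96 had none. All 8 GASA features, all 5 LOG features and all 4 GH3 features were counted, against 14 of 32 ARF, 12 of 22 Aux/IAA, 11 of 24 response regulator, 10 of 17 SAUR and 3 of 11 PIN features. Features without a count were unevenly spread over the layout of the reference, since all 83 features that overlapped another feature on the same strand had no count, as did 9 of 11 that overlapped on the opposite strand, against 4 of 99 that overlapped nothing. Over all features of the table the same held for 16308 of 16355, 3447 of 3769 and 2737 of 30922. A feature without a count is therefore not shown to be silent, and the tests below cover 82 to 91 features, depending on the comparison.

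**Figure D1:**
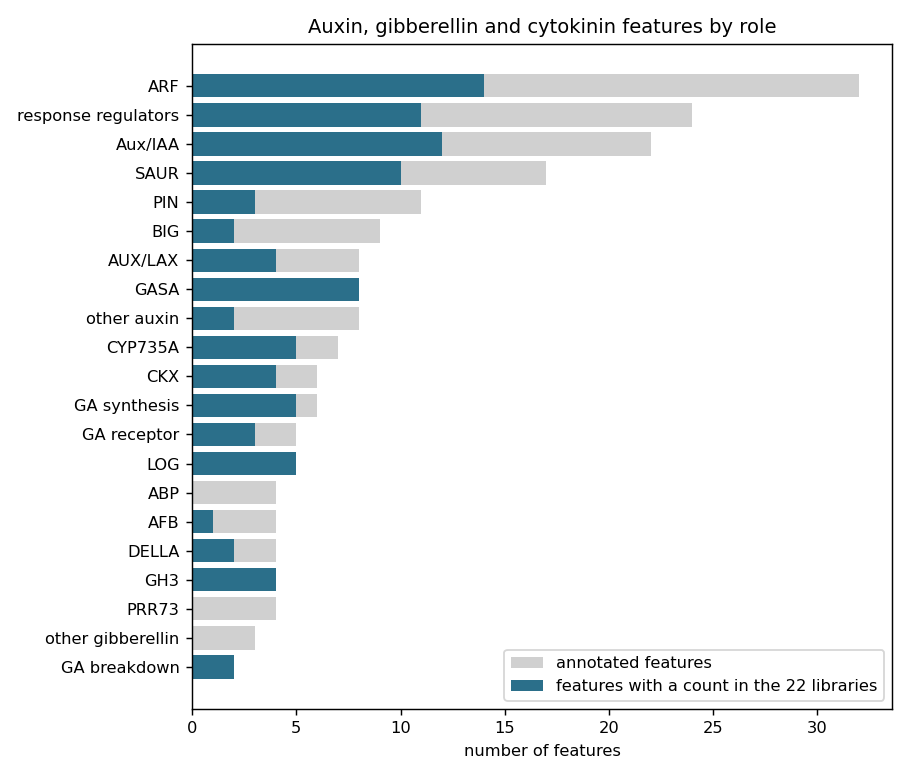
Number of features (horizontal axis) in each role of the 3 hormone pathways (vertical axis); grey bars give all annotated features and blue bars those with a count in the 22 libraries. The ARF family is the largest, with 14 of 32 features counted, while all 8 GASA features were counted.

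Levels per length gave a first picture of which genes were strongly expressed. On the scale of mean CPM per kilobase over the 22 libraries, the Aux/IAA repressor IAA9 (Gene_10708) stood at 179.5 and the DELLA protein GAI1 (Gene_6523) at 141.8. Other strongly expressed features were a GASA2 hit (Gene_33154, 61.6), a SAUR50 hit (Gene_67982, 50.2), a SAUR72 hit (Gene_7283, 45.4) and a pair of gibberellin 20-oxidases (Gene_5737, 41.2, and Gene_10483, 35.8). IAA9 was nearly level across organs and seasons, at 176 CPM per kilobase in spring needles, 191 in autumn needles, 162 in spring roots and 185 in autumn roots. Gene_33154 was not, at 1.35 CPM per kilobase in spring needles, 31.1 in autumn needles, 6.47 in spring roots and 188 in autumn roots.

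The season comparison in needles addressed how hormone genes in the foliage differ between May and September. A pair of auxin import carriers, an auxin receptor, an ARF4 hit, a DELLA protein and a pair of small GASA peptides stood higher in spring needles, while a different GASA peptide, the pine auxin-induced gene 5NG4 and a response regulator stood lower. Of 88 features tested, 19 changed (adjusted p under 0.05, quasi-likelihood test of edgeR, Benjamini-Hochberg), 11 higher and 8 lower in spring. That is 21.6% of those tested, against 15.3% of all 20560 features, of which 8.75% were higher and 6.52% lower. The median log2 fold change of the 88 was 0.13, against 0.03 over all features. With all 24 libraries as labelled 15 changed, and 12 changed without each of spring Ronda replicate 1, spring Ronda replicate 2 and autumn Yunquera replicate 3. With the tree as a block, 12 of the 19 calls were kept and 1 was gained. The auxin receptor and the import carrier Gene_71896 were not called with that block.

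**Figure D2:**
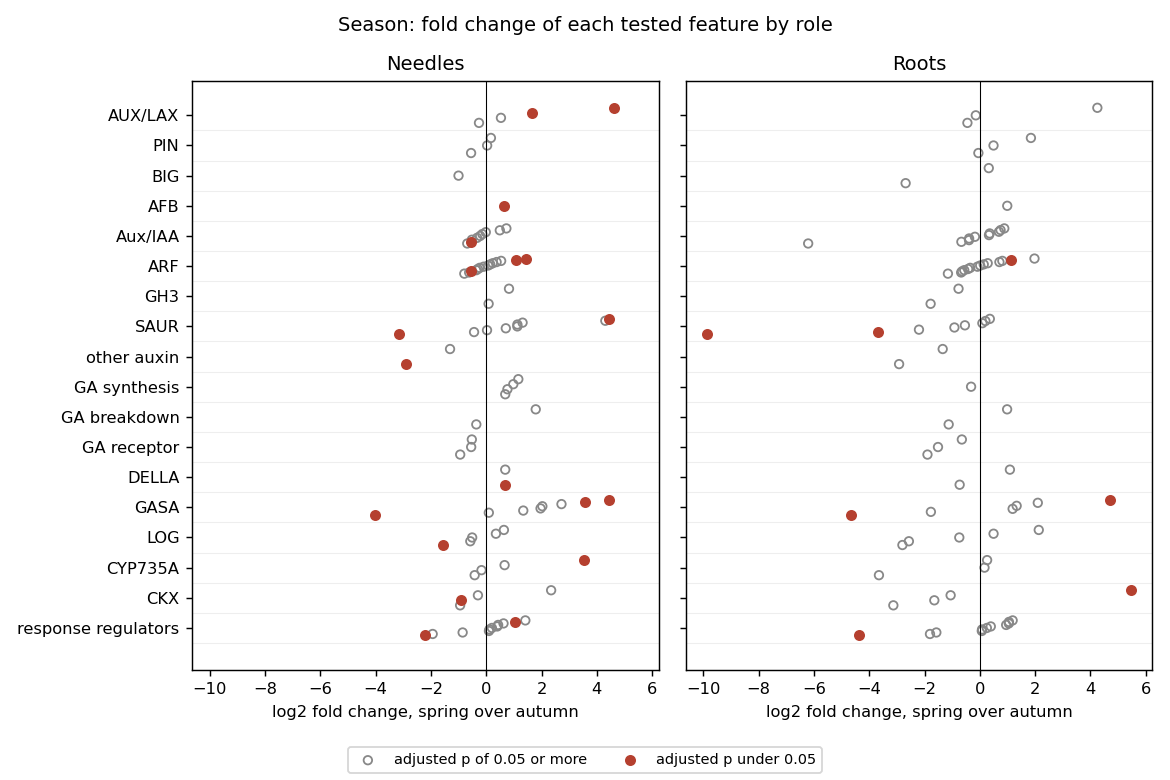
Log2 fold change of spring over autumn (horizontal axis) for each tested feature, by role (vertical axis), in needles (left) and roots (right); filled points have an adjusted p under 0.05. In needles 19 of 88 points are filled and in roots 7 of 82, and the GASA and SAUR rows hold filled points on both sides of 0 in needles. Values are as fitted, so points of features with a group at 0 mark no fold.

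Auxin carriers of the AUX/LAX family, which take auxin into cells, were higher in spring needles for 2 of 4 features tested, and the other 2 did not pass. Of all features 8.75% were higher. The feature ap_22415, whose best hit is a rice AUX/LAX carrier, had 37.6 and 22.9 CPM at Ronda and 19.4, 24 and 33.8 CPM at Yunquera in spring needles, against 3.74 to 17.5 CPM with a median of 8.38 CPM in autumn needles. Every spring library lay above every autumn library. The log2 fold change was 1.66 ± 0.28 (SE) with an edgeR adjusted p of 0.00521. A further carrier, Gene_71896, had 6.26 and 19.96 CPM at Ronda and 0.478, 5.05 and 10.9 CPM at Yunquera in spring needles, against 0 to 1.08 CPM with a median of 0.275 CPM in autumn needles. Its groups met at their edges, since the tree with the lowest spring value had less than the highest autumn library, although all 5 trees with both seasons were higher in spring. The log2 fold change was 4.63 ± 0.91 (edgeR adjusted p = 0.0106), and with the tree as a block the adjusted p was 0.0894. In bulk tissue, fewer cells of a type and less RNA per cell cannot be told apart, here or in any result that follows.

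The auxin receptor AFB2 (Gene_8650), the only counted feature of its 4, averaged 45.7 ± 10.6 CPM in 5 spring and 28.8 ± 3.57 CPM in 6 autumn needle libraries (SD), a log2 fold change of 0.64 ± 0.17 with an edgeR adjusted p of 0.0351. That call held in 3 of the 11 fits that each left out 1 library, and its adjusted p was 0.0815 with the tree as a block. Among the Aux/IAA repressors 1 of 9 tested changed, IAA13 (Gene_20688, a hit without a detected AUX/IAA domain), which fell by 0.56 on the log2 scale (edgeR adjusted p = 0.0288, and 0.0633 with the block), a call held in 5 of 11 fits that left out 1 library. IAA9 (Gene_10708), the most strongly expressed of them, had a log2 fold change of -0.14 ± 0.08 and did not pass.

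Among the auxin response factors, ARF4 (Gene_15937, reference sequence ap_10751, bases 1 to 4332), a repressor-type member in Arabidopsis, had 117 and 64.8 CPM at Ronda and 98.9, 88.8 and 68 CPM at Yunquera in spring needles, against 33.9 to 47.5 CPM with a median of 40.8 CPM in autumn needles. The groups did not overlap, and the feature was called in all 11 fits that left out 1 library. It rose by 1.09 ± 0.18 on the log2 scale (edgeR adjusted p = 0.00471). The other ARF4 hit, Gene_18584, had a log2 fold change of 0.38 ± 0.16 and did not pass. ARF19 (Gene_70797) fell by 0.54 (edgeR adjusted p = 0.0459), a call held in 1 of 11 fits that left out 1 library. Its means were 47.8 CPM in spring and 49.3 CPM in autumn at Ronda, where the seasons overlapped, and 46.1 CPM in spring and 91.8 CPM in autumn at Yunquera, where they did not. The difference between the sites was not tested.

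The small auxin-up RNAs (SAURs), a family of short proteins of which many promote cell elongation, split by member. The SAUR50 hit Gene_67982 had 2.91 and 0.415 CPM at Ronda and 2.55, 2.13 and 1.3 CPM at Yunquera in spring needles, against 3.5 to 28.7 CPM with a median of 19 CPM in autumn needles. No spring library reached the lowest autumn library. It fell by 3.15 on the log2 scale (SE 0.71, edgeR adjusted p = 0.0182), with an adjusted p of 0.0727 when spring Ronda replicate 2 was left out. Gene_14270, also a SAUR50 hit, had 5.72 and 0.888 CPM at Ronda and 15.3, 5.95 and 1.41 CPM at Yunquera in spring needles and 0 to 1.28 CPM in autumn needles. The spring libraries were mostly higher, but the lowest of them lay below the highest autumn library. It rose by 4.45 ± 1.28 (edgeR adjusted p = 0.0457), a call that held in 2 of 11 fits that left out 1 library and not with the block (adjusted p = 0.088). The remaining 7 of 9 tested SAURs did not pass.

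5NG4 (Gene_75090) is a transporter-like gene known from loblolly pine, where auxin induces it in hypocotyls. It had 0.887 and 1.6 CPM at Ronda and 1.38, 1.65 and 2.82 CPM at Yunquera in spring needles, against 6.62 to 22.2 CPM with a median of 8.71 CPM in autumn needles. The groups were well apart. Its log2 fold change of -2.92 ± 0.35 carried the smallest adjusted p of the hormone features in this comparison (edgeR, 0.00108).

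Of the gibberellin features, the DELLA protein GAI1 (Gene_6523), which restrains growth until gibberellin removes it, had 410.2 and 429.7 CPM at Ronda and 396, 261 and 286 CPM at Yunquera in spring needles, against 176 to 250.0 CPM with a median of 230.1 CPM in autumn needles. The groups did not overlap and all 5 trees were higher in spring. The log2 fold change was 0.68 ± 0.14 (edgeR adjusted p = 0.0119). Another GAI1 hit, Gene_76275, did not pass. None of the 4 tested synthesis features, 2 breakdown features or 3 GID1 receptor features changed. The 20-oxidase Gene_10483, which makes the precursors of active gibberellin, had 167 ± 63.9 CPM in spring and 79 ± 41.7 CPM in autumn needles (SD, 5 and 6 libraries), a log2 fold change of 1.16 ± 0.35 with an edgeR adjusted p of 0.0565.

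GASA proteins are small cysteine-rich peptides named for their induction by gibberellin in Arabidopsis, and 3 of 8 changed in needles, with opposite directions among them. Of all features 15.3% changed. The GASA2 hit Gene_10086 had 92.9 and 13.4 CPM at Ronda and 37.3, 117 and 50.2 CPM at Yunquera in spring needles, against 0.43 to 12.6 CPM with a median of 3.51 CPM in autumn needles. It rose by 4.44 ± 0.66 on the log2 scale (edgeR adjusted p = 0.00326), with no overlap between the groups. The GASA8 hit ap_7840 had 10.6 and 7.4 CPM at Ronda and 8.93, 16.2 and 47.3 CPM at Yunquera in spring needles, against 0.234 to 3.89 CPM with a median of 1.08 CPM in autumn needles. It too rose, by 3.59 ± 0.53 (edgeR adjusted p = 0.00318). Another GASA2 hit, Gene_33154, ran the other way, with 2.91 and 0.0592 CPM at Ronda and 0.851, 4.3 and 1.52 CPM at Yunquera in spring needles, against 5.08 to 121 CPM with a median of 17 CPM in autumn needles. It fell by 4.01 (SE 0.97, edgeR adjusted p = 0.0241), with an adjusted p of up to 0.0749 when spring Ronda replicate 2 or autumn Yunquera replicate 3 was left out. Gene_10086 and Gene_33154 lie on different reference sequences (ap_7128 and ap_23657) and both carry the GASA protein domain.

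Among the cytokinin features, the response regulator Gene_68149, a hit to rice ORR41, had 6.46 and 4.38 CPM at Ronda and 6.11, 6.75 and 4.85 CPM at Yunquera in spring needles, against 16.5 to 35.5 CPM with a median of 26.8 CPM in autumn needles. The highest spring library lay far below the lowest autumn library. It fell by 2.21 on the log2 scale (SE 0.27, edgeR adjusted p = 0.00111), while with all 24 libraries its adjusted p was 0.0743. The other ORR41 hit, Gene_30505, did not pass, at 10.3 CPM per kilobase in spring needles and 9.94 in autumn needles. ARR3 (ap_17070), a type-A regulator in Arabidopsis, had 9.56 and 10.4 CPM at Ronda and 9.09, 12.3 and 6.09 CPM at Yunquera in spring needles, against 2.73 to 7.53 CPM with a median of 4.68 CPM in autumn needles. It rose by 1.03 ± 0.24 (edgeR adjusted p = 0.0205), with an adjusted p of up to 0.0687 without autumn Yunquera replicate 3, spring Ronda replicate 1 or spring Ronda replicate 2. The activating enzyme LOG7 (Gene_20366) fell by 1.55 (edgeR adjusted p = 0.0182) and the dehydrogenase CKX7 (Gene_18404), which breaks cytokinin down, by 0.93 (edgeR adjusted p = 0.0435, and 0.108 with the block). The CKX7 call held in 3 and the LOG7 call in 9 of 11 fits that left out 1 library. A cytokinin hydroxylase (Gene_21298) also passed (edgeR adjusted p = 0.0199, and 0.0673 with the block), with 6.46 and 3.67 CPM at Ronda and 0.266, 0.803 and 0.451 CPM at Yunquera in spring needles and, in autumn needles, 3.56, 0.775 and 4.46 CPM at Ronda and 0 in all 3 Yunquera libraries. No fitted fold change is given for it because of those zeros.

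**Figure D3:**
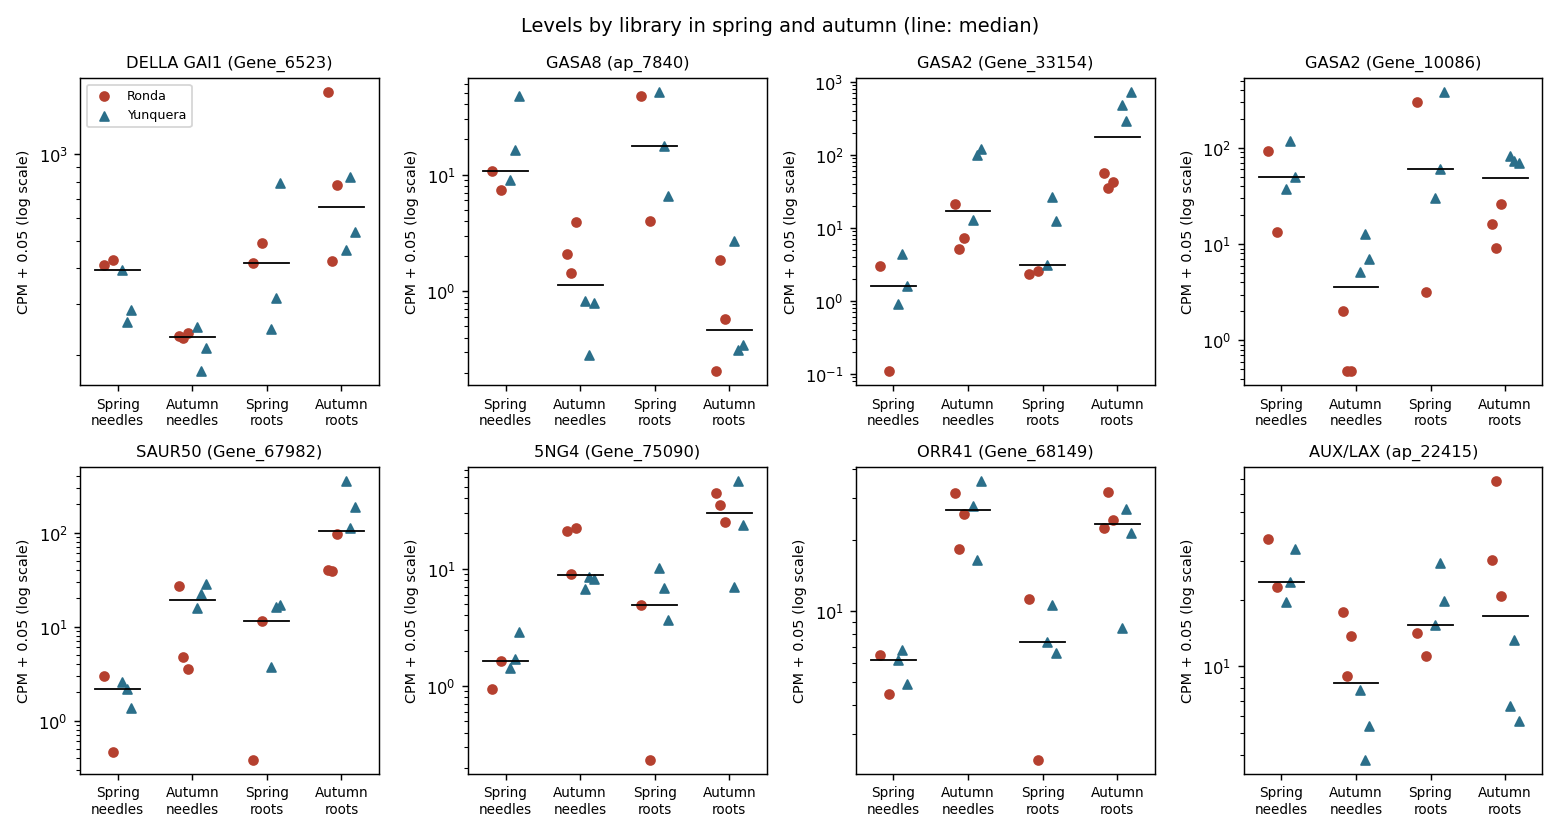
CPM plus 0.05 on a log scale (vertical axis) for 8 hormone features in every library of spring and autumn needles and spring and autumn roots (horizontal axis); circles are Ronda trees, triangles Yunquera trees and lines medians. The GASA8 hit is higher in spring in both organs, the DELLA protein GAI1 is higher in spring in needles, the GASA2 hit Gene_33154 and the SAUR50 hit Gene_67982 are lower in spring in both, and the AUX/LAX carrier ap_22415 differs by season in needles, where every spring library exceeds every autumn library.

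Markers of dividing tissue (histones, cyclins, replication factors) moved with season in needles. Of 87 tested, 35 were higher in spring needles and 0 lower, with a median log2 fold change of 0.75, and their summed level was 2752 to 5994 CPM in spring needles, against 2170 to 2934 CPM in autumn needles. No count at all was found for 40 of the 134 annotated dividing markers. The photosynthesis share was 3.59 to 5.04% in spring needles and 2.40 to 4.05% in autumn needles. The part of these shifts in the hormone results was not tested.

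In roots the season comparison found fewer changes. Of 82 features tested 7 changed, 3 higher and 4 lower in spring (8.54% against 5.48% of all 18538 features, 2.37% higher and 3.11% lower), with a median log2 fold change of −0.12, against 0.03 over all features. The list was led by a GASA2 hit and included 4 features that had also changed in needles, in the same direction in both organs. Those 4 are 21.1% of the needle calls and 57.1% of the root calls, and the trees are the same in both organs. The overlap of calls over all features was not counted, so these shares are no result about the hormone features. With the tree as a block 2 of the 7 changed, with all 24 libraries 6, and the count was 2 to 4 without each of autumn Ronda replicates 1 and 3, autumn Yunquera replicates 2 and 3, spring Ronda replicate 3 and spring Yunquera replicates 1 and 2. Dividing tissue markers did not lean one way in roots, with 2 higher and 2 lower of 83 tested, and the share of counts from features with a best hit outside land plants was 5.67 to 6.79% in spring roots and 5.44 to 9.19% in autumn roots.

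Gene_33154, the GASA2 hit, had 2.3 and 2.53 CPM at Ronda and 3.07, 26.2 and 12.2 CPM at Yunquera in spring roots, against 34.8 to 713 CPM with a median of 174 CPM in autumn roots. All spring libraries lay below all autumn libraries, and the 3 highest autumn libraries were from Yunquera. It fell by 4.66 on the log2 scale (SE 0.57, edgeR adjusted p = 0.00395) and was called in all 11 fits that left out 1 library and with the tree as a block. The GASA8 hit ap_7840 had 46.9 and 3.95 CPM at Ronda and 50.6, 17.5 and 6.56 CPM at Yunquera in spring roots, against 0.158 to 2.66 CPM with a median of 0.417 CPM in autumn roots. It rose by 4.72 ± 1.00 (edgeR adjusted p = 0.0257), held with the block (0.0347) and was called in 4 of 11 fits that left out 1 library, with adjusted p up to 0.0958. Gene_10086, the GASA2 hit that rose in spring needles, had 299 and 3.15 CPM at Ronda and 30.03, 60.7 and 377 CPM at Yunquera in spring roots, against 8.98 to 82.1 CPM with a median of 48.2 CPM in autumn roots. Its root libraries overlapped and it did not pass (log2 fold change 2.10 ± 0.90).

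ARF4 (Gene_15937), which rose in spring needles, had 152 and 202 CPM at Ronda and 175, 159.6 and 164 CPM at Yunquera in spring roots, against 58.8 to 226 CPM with a median of 93.3 CPM in autumn roots, and did not pass (log2 fold change 0.81 ± 0.27).

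The SAUR50 hit Gene_67982 had 0.333 and 11.5 CPM at Ronda and 3.64, 16.2 and 17.1 CPM at Yunquera in spring roots, against 38.6 to 354 CPM with a median of 104 CPM in autumn roots. It fell by 3.68 (SE 0.85, edgeR adjusted p = 0.0356, and 0.0537 with the block), a call held in 4 of 11 fits that left out 1 library. A SAUR72 hit (Gene_70676) had no count in any of the 5 spring root libraries, against 0 to 15 CPM with a median of 5.56 CPM in autumn roots. Set against a floor of 3 counts over the spring group, it was at least 254-fold lower in spring (edgeR adjusted p = 0.0394), a call held in 2 of 11 fits that left out 1 library and not with the block (adjusted p = 0.051). The floor covers counting error only.

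On the cytokinin side, ARR9 (Gene_23112), a type-A regulator in Arabidopsis, had 0.266 and 0 CPM at Ronda and 1.87, 0.256 and 0.233 CPM at Yunquera in spring roots, against 2.19 to 19.9 CPM with a median of 6.02 CPM in autumn roots. It fell by 4.38 (SE 1.00, edgeR adjusted p = 0.0343, and 0.056 with the block). The dehydrogenase CKX5 (Gene_32164) had 5.56 and 1.97 CPM at Ronda and 2.69, 0.972 and 1.68 CPM at Yunquera in spring roots, while autumn roots held 0 to 0.399 CPM. It rose by 5.47 ± 1.20 (edgeR adjusted p = 0.0289, and 0.125 with the block). Both calls held in 4 of 11 fits that left out 1 library. The DELLA protein GAI1 (Gene_6523) had 419 and 492 CPM at Ronda and 247, 317 and 795 CPM at Yunquera in spring roots, against 424 to 1639 CPM with a median of 656 CPM in autumn roots, and did not pass (log2 fold change -0.73 ± 0.42). Nor did 5NG4 (Gene_75090, -2.92 ± 0.78) or the ORR41 hit Gene_68149 (-1.57 ± 0.45). The other ORR41 hit, Gene_30505, ran the other way in roots and did not pass either (1.185 ± 0.593). Gene_76275, another GAI1 hit, had a log2 fold change of 1.086 ± 0.512 in roots and did not pass.

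Whether the season change differed between organs was tested directly, as the spring over autumn change in needles minus that in roots. Of 91 features tested 2 passed (2.20% against 3.73% of all 21600 features, 2.76% with a positive difference), both with a positive difference. The carrier ap_22415 had 37.6 and 22.9 CPM at Ronda and 19.4, 24 and 33.8 CPM at Yunquera in spring needles, against 3.74 to 17.5 CPM with a median of 8.38 CPM in autumn needles, and 14 and 11 CPM at Ronda and 15.4, 29.3 and 19.7 CPM at Yunquera in spring roots, against 5.62 to 68.7 CPM with a median of 16.9 CPM in autumn roots. The difference was 1.85 ± 0.49 on the log2 scale (edgeR adjusted p = 0.043). In roots the carrier was lower in spring at Ronda, where autumn averaged 39.9 CPM, and higher in spring at Yunquera, where autumn averaged 8.43 CPM. The cytokinin hydroxylase Gene_21298 had 0.233 and 0 CPM at Ronda and 1.52, 0 and 0.931 CPM at Yunquera in spring roots, against 0 to 22.1 CPM with a median of 5.16 CPM in autumn roots, and passed with an edgeR adjusted p of 0.0401, again with 0 in the Yunquera autumn needles. The calls held in 7 and 6 of 22 fits that left out 1 library, and neither held with the tree as a block (adjusted p of 0.136 for ap_22415 and 0.144 for Gene_21298) or with all 24 libraries.

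Comparing needles with roots gave the most calls among the hormone features. In spring 32 of 91 features differed, 21 higher and 11 lower in needles (35.2% against 28.2% of all 21600 features, 19.2% higher and 8.95% lower). In autumn 43 of 91 differed, 18 higher and 25 lower in needles (47.3% against 32.1%, 18.7% higher and 13.4% lower). The median log2 fold change was 0.07 in spring (0.09 with features absent from a group at their bound) and 0.03 in autumn, against 0.11 and 0.18 over all features. Of these calls 26 were made in both seasons, all in the same direction, which is 81.2% of the spring and 60.5% of the autumn calls. That overlap was not counted over all features either, so it cannot be set against the whole table. With all 24 libraries 5 were called in spring and 40 in autumn, and with the tree as a block 26 and 44. Dividing tissue markers differed between organs as well, 19 higher and 3 lower in needles in spring and 4 higher and 18 lower in autumn, of 88 tested, and their part in the hormone results was not tested.

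**Figure D4:**
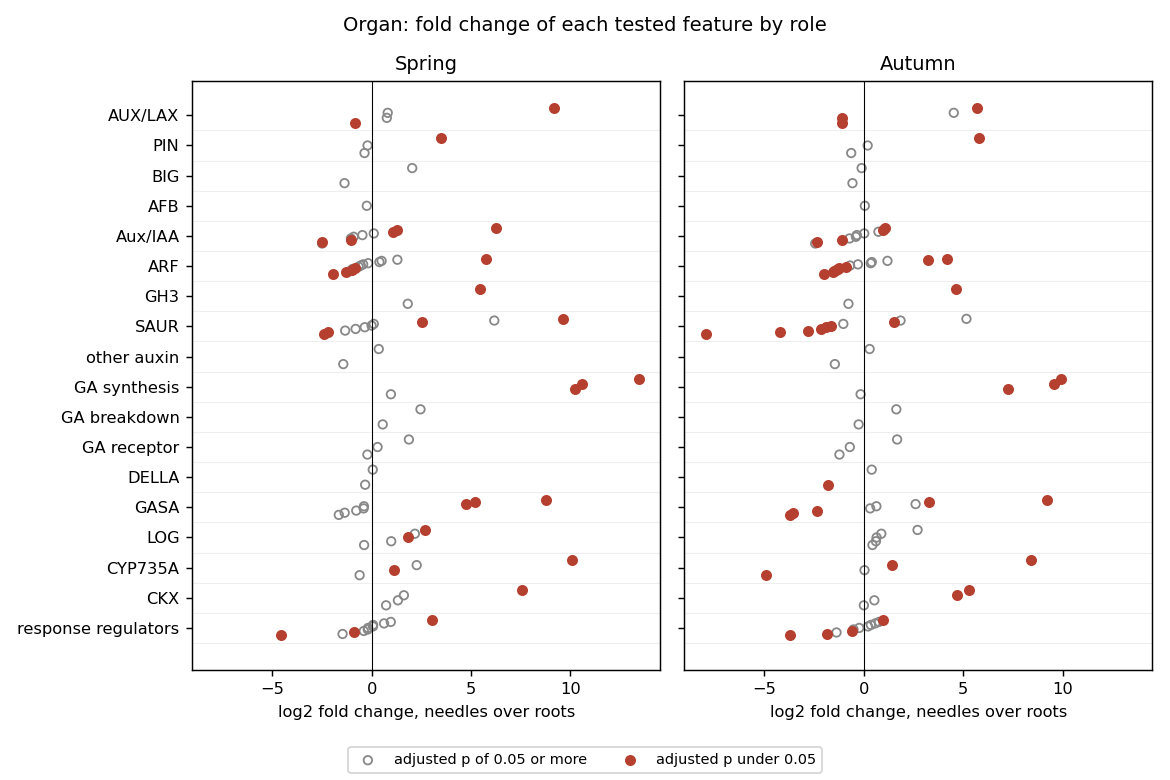
Log2 fold change of needles over roots (horizontal axis) for each tested feature, by role (vertical axis), in spring (left) and autumn (right); filled points have an adjusted p under 0.05, and points of features with a group at 0 mark no fold. The 3 filled gibberellin synthesis points lie far to the right in both seasons, while most filled ARF points lie left of 0 in both.

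Of 4 gibberellin synthesis features tested, the 3 hits to a 20-oxidase were higher in needles in both seasons. The fourth, a 3-beta-dioxygenase hit (Gene_26911) of the step that yields active gibberellin, did not pass, with log2 fold changes of 0.97 ± 0.96 in spring and -0.15 ± 0.84 in autumn. Gene_10483 (ap_7369, bases 1 to 1666), a hit to wheat gibberellin 20-oxidase, had 164 and 236 CPM at Ronda and 67, 162 and 207 CPM at Yunquera in spring needles, against 0.133 and 0 CPM at Ronda and 0.353, 0 and 0 CPM at Yunquera in spring roots. In autumn it had 28.8 to 155 CPM with a median of 70.2 CPM in needles, against 0 to 0.712 CPM with a median of 0.0332 CPM in roots. The lowest needle library was far above the highest root library in both seasons. Its log2 fold changes were 10.58 ± 0.98 in spring and 9.58 ± 0.84 in autumn (edgeR adjusted p = 2.93e-07 and 1.53e-07). Gene_5737 (ap_4367, bases 1 to 1375), with the same hit, had 212 and 101 CPM at Ronda and 21.7, 112 and 289 CPM at Yunquera in spring needles and 1 count in all 5 spring root libraries together, a ratio of 1.70e+04 with a 95% counting interval of 3.05e+03 to 6.72e+05. In autumn it had 1.11 to 186 CPM with a median of 90.2 CPM in needles, against 0 to 0.3 CPM with a median of 0.0297 CPM in roots, with the lowest needle value in the Yunquera tree numbered 2. The third such feature, Gene_21195 (ap_14340, bases 1 to 1586), averaged 43.8 ± 38.5 CPM in spring needles and 0.0278 ± 0.046 CPM in spring roots (SD, n = 5 libraries each), and in autumn overlapped, since the same Yunquera tree had 0.0584 CPM in its needles. All 3 passed in both seasons by edgeR, and reads shared among such similar features cannot be told apart here, since the handling of multiply mapped reads is not given in the sources used here.

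**Figure D5:**
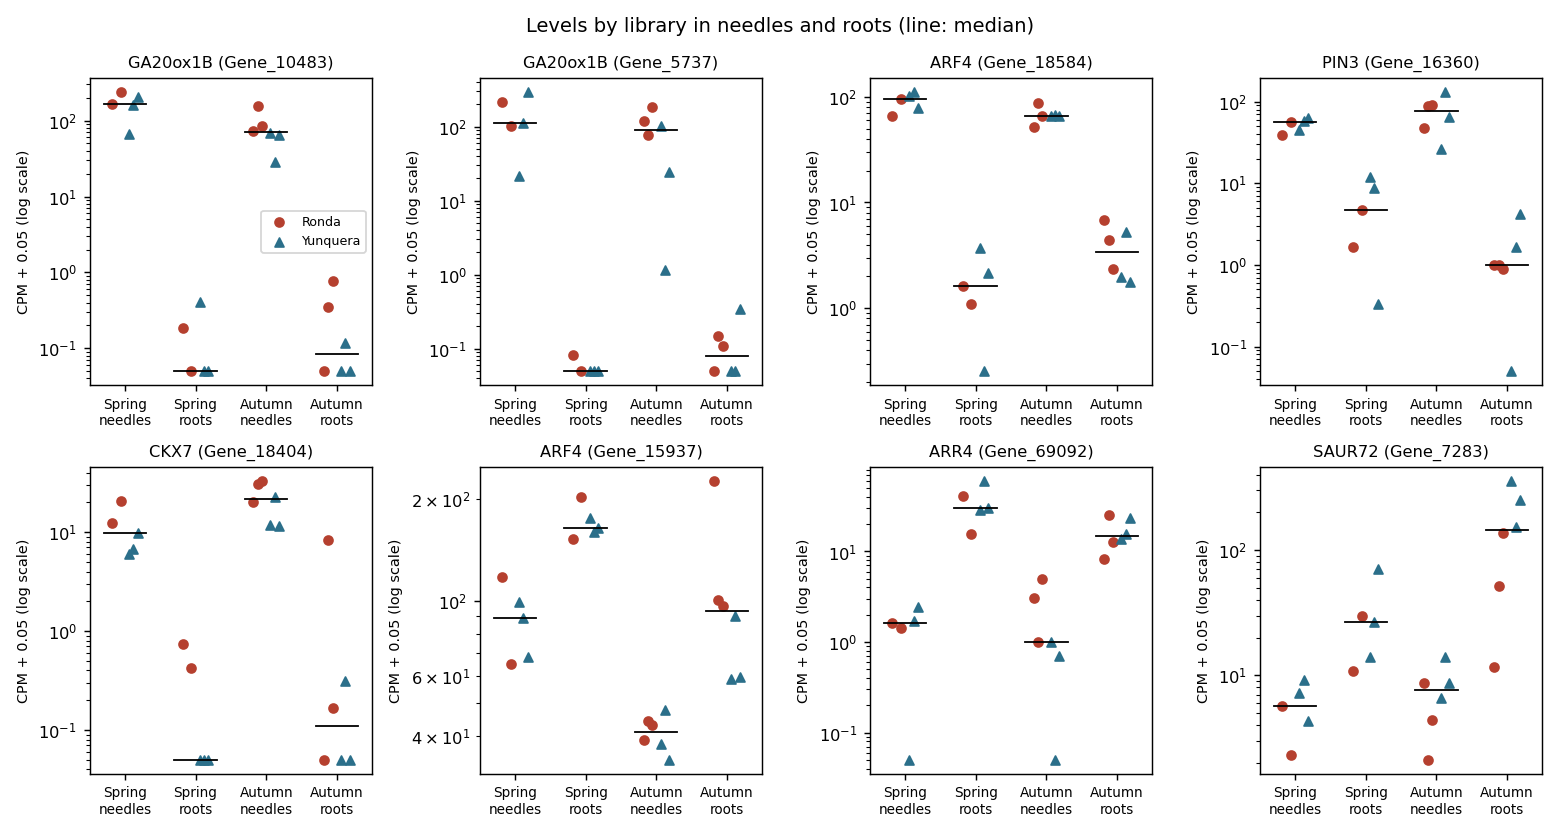
CPM plus 0.05 on a log scale (vertical axis) for 8 hormone features in every library of needles and roots in spring, then in autumn (horizontal axis); circles are Ronda trees, triangles Yunquera trees and lines medians. Both gibberellin 20-oxidases shown, the ARF4 hit Gene_18584, the PIN3 hit Gene_16360 and the CKX7 hit Gene_18404 are higher in needles. The ARF4 hit Gene_15937, the ARR4 hit Gene_69092 and the SAUR72 hit Gene_7283 are lower in needles.

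Auxin response factors divided by member. The ARF4 hit Gene_18584 had 65.7 and 96.1 CPM at Ronda and 101, 109.9 and 78.9 CPM at Yunquera in spring needles, against 1.56 and 1.05 CPM at Ronda and 3.67, 0.205 and 2.09 CPM at Yunquera in spring roots, and 52.1 to 86.6 CPM with a median of 65.9 CPM in autumn needles, against 1.72 to 6.72 CPM with a median of 3.36 CPM in autumn roots. It was higher in needles in every library, by 5.76 ± 0.60 in spring and 4.21 ± 0.48 in autumn on the log2 scale (edgeR adjusted p = 1.15e-06 and 3.16e-06). The other ARF4 hit, Gene_15937, had 87.6 ± 21.9 CPM in spring needles and 171 ± 19.4 CPM in spring roots, and 40.8 ± 4.96 CPM in autumn needles and 105 ± 61.8 CPM in autumn roots (SD, 5 libraries a group in spring and 6 in autumn). It was lower in needles in both seasons, with log2 fold changes of -0.96 ± 0.24 and -1.28 ± 0.22 (edgeR adjusted p = 0.00658 in spring, held in 21 of 22 fits that left out 1 library, and 0.000225 in autumn). ARF6 (Gene_69786) and ARF19 (Gene_70797), hits to activating ARFs, were lower in needles as well, by 0.84 and 1.30 in spring and by 1.52 and 1.49 in autumn. ARF18 (Gene_20557) was lower by 1.94 in spring and 1.98 in autumn. In spring 1 of 14 tested ARFs was higher and 4 lower in needles, and in autumn 2 were higher and 7 lower. Over all features 19.2% were higher and 8.95% lower in spring, and 18.7% and 13.4% in autumn.

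Auxin transport and storage genes differed both ways, with a PIN3 hit and a GH3.6 hit higher in needles. These were 1 of 3 PIN and 1 of 2 GH3 features tested, in each season. Another PIN3 hit, Gene_25896, did not pass, at 0.223 CPM per kilobase in spring needles and 0.252 in spring roots. PIN3 (Gene_16360), an efflux carrier, had 39 and 57.1 CPM at Ronda and 44.8, 58.5 and 63.4 CPM at Yunquera in spring needles, against 1.6 and 4.62 CPM at Ronda and 11.8, 8.64 and 0.279 CPM at Yunquera in spring roots, and 26.3 to 129.9 CPM with a median of 76.6 CPM in autumn needles, against 0 to 4.2 CPM with a median of 0.949 CPM in autumn roots. The organs did not overlap in either season, and the log2 fold changes were 3.48 ± 0.87 and 5.82 ± 0.86 (edgeR adjusted p = 0.00601 in spring and 5.35e-05 in autumn). GH3.6 (Gene_32684), which conjugates auxin to amino acids, averaged 19 ± 6.36 CPM in spring needles and 0.695 ± 1.1 CPM in spring roots, and 21 ± 15.7 CPM in autumn needles and 0.73 ± 0.987 CPM in autumn roots. Each mean is over 5 libraries in spring or 6 in autumn, with its SD. GH3.6 was higher in needles by 5.47 ± 1.16 in spring and 4.64 ± 0.96 in autumn (edgeR adjusted p = 0.00189 and 0.00127). The AUX/LAX carrier Gene_71896 had 2 counts in the 5 spring root libraries and 0 in the 6 autumn root libraries. It was 493-fold higher in spring needles (95% counting interval 136 to 4.07e+03) and at least 13.3-fold higher in autumn needles. A different carrier, Gene_15330, was lower in needles, at 12.9 ± 4.53 CPM in spring needles and 23.6 ± 4.47 CPM in spring roots, and 15.6 ± 3.69 CPM in autumn needles and 33.3 ± 12.6 CPM in autumn roots (edgeR adjusted p = 0.031 in spring, 0.1 with the block, and 0.00301 in autumn). The carrier ap_22415 was lower in autumn needles by 1.08 (edgeR adjusted p = 0.0167) and did not pass in spring. Over the family 1 of 4 features was higher and 1 lower in spring needles, and 1 higher and 2 lower in autumn needles. Of all features 28.2% differed in spring and 32.1% in autumn.

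SAUR features were mostly lower in needles in autumn, with 6 of 10 tested lower and 1 higher, and 2 lower and 2 higher in spring. Of all features 13.4% were lower and 18.7% higher in autumn, and 8.95% and 19.2% in spring. SAUR72 (Gene_7283) had 5.62 and 2.25 CPM at Ronda and 7.18, 9.07 and 4.29 CPM at Yunquera in spring needles, against 10.8 and 29.7 CPM at Ronda and 14, 26.8 and 71.1 CPM at Yunquera in spring roots. In autumn it had 2.07 to 13.8 CPM with a median of 7.6 CPM in needles, against 11.7 to 355 CPM with a median of 145 CPM in roots. The organs were apart in spring and met in autumn, when 1 Ronda root library lay below the highest needle library. Its log2 fold changes were -2.40 ± 0.63 and -4.22 ± 0.60 (edgeR adjusted p = 0.00827 in spring, 0.0586 without spring needles Ronda replicate 2, and 3.54e-05 in autumn). SAUR32 (Gene_14769) was higher in needles, by 2.53 ± 0.39 in spring and 1.54 ± 0.33 in autumn (edgeR adjusted p = 9.86e-05 and 0.00175). Gene_14270, the SAUR50 hit that rose in spring needles, had no count in any of the 11 root libraries and was at least 225-fold higher in spring needles. Among Aux/IAA features, a pair of IAA26 hits (Gene_18736 and Gene_71492) passed as higher in needles and IAA16 (Gene_22670) and an IAA13 hit (Gene_19075) as lower in both seasons. With the tree as a block the spring adjusted p was 0.093 for Gene_18736 and 0.124 for Gene_71492, a pair with the same best hit that may share reads. Their spring calls held in 17 and 9, and their autumn calls in 15 and 15, of 22 fits that left out 1 library. The 22 include fits that left out a library of the other season. For Gene_18736 every such fit that lost the spring call left out a spring library.

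The DELLA protein GAI1 (Gene_6523) was lower in autumn needles, with 176 to 250.0 CPM with a median of 230.1 CPM, against 424 to 1639 CPM with a median of 656 CPM in autumn roots. All 6 trees had less in needles, and the log2 fold change was -1.77 ± 0.31 (edgeR adjusted p = 0.00029). In spring the organs overlapped, and the log2 fold change of -0.32 ± 0.34 did not pass. The difference between those organ gaps is the season by organ test, which gave 1.45 ± 0.46 with an edgeR adjusted p of 0.0885. Another GAI1 hit, Gene_76275, did not pass in either season, at 2.06 CPM per kilobase in autumn needles and 1.55 in autumn roots. GASA features differed both ways, beside 28.2% of all features that differed in spring and 32.1% in autumn. Of 8 GASA features, 3 were higher and 0 lower in spring needles, and 2 higher and 3 lower in autumn needles. The 3 lower in autumn needles were all GASA2 hits (Gene_10086, Gene_17177 and Gene_33154, of 4 such hits), with log2 fold changes of -3.70, -3.55 and -2.33. A GASA11 hit (Gene_3315) was higher in needles in both seasons, and a GASA6 hit (Gene_9535) had 3 counts in the 6 autumn root libraries, against 0 to 20.02 CPM with a median of 15.8 CPM in autumn needles.

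Cytokinin genes also differed by member. Of 4 CKX features 1 was higher in needles in spring and 2 in autumn, with none lower. Of 4 hydroxylases 2 were higher in both seasons and 1, Gene_21298, was lower in autumn. The spring call of Gene_18250, one of the higher pair, held in 14 of 22 fits that left out 1 library and not with all 24 libraries (adjusted p = 0.236). The 22 include fits that left out an autumn library, which is not part of the spring comparison. Its call was lost without each of spring needles Ronda replicates 1 and 2 and Yunquera replicates 1 and 2. It was also lost without each of spring roots Ronda replicates 1 and 3 and Yunquera replicates 1 and 3. Of 11 response regulators 1 was higher and 2 lower in spring, and 1 higher and 3 lower in autumn. Over all features 28.2% differed in spring and 32.1% in autumn, so these small counts alone are no result about a family. CKX7 (Gene_18404) had 12.4 and 20.5 CPM at Ronda and 5.9, 6.71 and 9.71 CPM at Yunquera in spring needles, against 0.699 and 0.37 CPM at Ronda and 0, 0 and 0 CPM at Yunquera in spring roots, and 11.6 to 32.8 CPM with a median of 21.3 CPM in autumn needles, against 0 to 8.33 CPM with a median of 0.0593 CPM in autumn roots. Needles exceeded roots without overlap in both seasons (edgeR adjusted p = 0.0012 in spring and 0.00135 in autumn). The other counted CKX7 hits, Gene_67983 and Gene_20188, did not pass in either. The hydroxylase Gene_42901 had no count in 5 spring root libraries and 1 count in 6 autumn root libraries. It was at least 291-fold higher in spring needles and 455-fold higher in autumn needles (95% counting interval 81.6 to 1.80e+04). ARR4 (Gene_69092), type-A in Arabidopsis, had 1.58 and 1.36 CPM at Ronda and 0, 1.65 and 2.37 CPM at Yunquera in spring needles, against 40.9 and 15.7 CPM at Ronda and 28.3, 59.9 and 30.1 CPM at Yunquera in spring roots. In autumn it had 0 to 4.97 CPM with a median of 0.955 CPM in needles, against 8.13 to 25 CPM with a median of 14.7 CPM in roots. It was lower in needles by 4.57 in spring and 3.69 in autumn on the log2 scale (edgeR adjusted p = 0.00113 and 0.00135). The other ARR4 hits, Gene_29146 and ap_76865, did not pass in either season. Gene_29146 stood at 5.36 CPM per kilobase in spring needles and 3.25 in spring roots. ARR3 (ap_17070) was lower by 0.86 in spring needles (edgeR adjusted p = 0.0414, and 0.0881 with the block) and by 1.85 in autumn needles (edgeR adjusted p = 6.11e-05), whereas ARR9 (Gene_23112), also type-A, was higher in spring needles by 3.04 ± 0.85 (edgeR adjusted p = 0.0126). The activating enzyme LOG8 (Gene_5185) was higher in spring needles by 2.70 ± 0.66 (edgeR adjusted p = 0.00551), with 5.62 and 8.47 CPM at Ronda and 6.27, 7.89 and 8.52 CPM at Yunquera, against 1.6 and 0 CPM at Ronda and 0.777, 2.91 and 0.884 CPM at Yunquera in spring roots.

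The site comparison set the upper against the lower ecotone within each organ and season and found few differences. In autumn needles 3 of 88 features differed (3.41% against 1.75% of all 20560 features, 1.12% higher and 0.623% lower), 2 higher and 1 lower at Ronda. The hydroxylase Gene_21298 had 3.56, 0.775 and 4.46 CPM at Ronda and no count in 3 Yunquera libraries, at least 51.1-fold higher at Ronda (edgeR adjusted p = 0.0222). Its spring needle values were 6.46 and 3.67 CPM at Ronda and 0.266, 0.803 and 0.451 CPM at Yunquera, also without overlap, but did not pass. An ORR41 hit (Gene_30505) had 36.5, 33.7 and 51.9 CPM at Ronda and 13.8, 14.5 and 20.2 CPM at Yunquera and was higher at Ronda by 1.34 ± 0.25 (edgeR adjusted p = 0.0307). IAA9 (Gene_10708) had 189, 202 and 201 CPM at Ronda and 274, 273 and 309 CPM at Yunquera and was lower at Ronda by 0.52 (edgeR adjusted p = 0.0475). These calls held in 7, 2 and 2 of 11 fits that left out 1 library, the count was 0 without each of autumn Ronda replicates 1 and 3 and autumn Yunquera replicates 2 and 3, and with all 24 libraries it was 0. The 11 include fits that left out a spring library, which is not part of this comparison. Gene_30505 and IAA9 lost their call without each of the autumn needle libraries, and the fits that kept them left out a spring library. With the tree as a random term in limma 1 call was made, and the adjusted p was 0.14 for Gene_21298 and 0.0529 for IAA9.

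No hormone feature passed by edgeR in spring needles (0.00% of all features called), autumn roots (0.0324%, 0.0270% higher and 0.00539% lower) or spring roots (0.00%). At an unadjusted p under 0.05 there were 6, 9 and 1, and DESeq2 called 1, 2 and 0. The GASA2 hit Gene_33154 had 56.5, 34.8 and 42.5 CPM at Ronda and 478, 290.5 and 713 CPM at Yunquera in autumn roots, a log2 fold change of -3.42 ± 0.66 with an edgeR adjusted p of 0.155. The carrier ap_22415 had 30.2, 68.7 and 20.8 CPM at Ronda and 6.59, 13.1 and 5.62 CPM at Yunquera in autumn roots, a log2 fold change of 2.27 ± 0.53 with an edgeR adjusted p of 0.198. In both the sites were apart, with 3 libraries each.

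Other genes of the same pathways, listed by name and not among the 193, are given with the share over all features beside each count. Of 52 tested in needles 13.5% changed with season in either direction, against 15.3% of all features. With 0 lower in spring, against 6.52% of all features, 7 were higher, 13.5% against 8.75%. They were 4 histidine-containing phosphotransfer proteins, which pass the cytokinin signal on (ap_70423, Gene_3770, Gene_10002 and Gene_3864, log2 fold changes of 1.51, 1.76, 1.43 and 0.76), a pair of ent-kaurenoic acid oxidases of gibberellin synthesis (Gene_24549 and ap_8515, 1.66 and 1.72), and the F-box protein GID2, which takes part in DELLA breakdown in rice (Gene_11971, 1.33). None of the 16 auxin synthesis and 15 auxin perception and transport features tested in needles changed with season. In roots 1 of 48 was higher in spring, PINOID, a kinase that acts on PIN carriers (ap_81893, 4.87), and 3 were lower, among them a PIN-LIKES carrier (ap_14893) at −2.81, together 8.33% against 5.48% of all features. Between organs 14 of 54 were higher (25.9% against 19.2%) and 9 lower (16.7% against 8.95%) in spring needles. In autumn needles 10 were higher (18.5% against 18.7%) and 10 lower (18.5% against 13.4%). The ent-kaurenoic acid oxidase Gene_24549 was higher in needles by 4.25 in spring and 2.99 in autumn, and ABC transporter B1 (Gene_52265), an auxin exporter, was lower by 2.38 in spring and 1.89 in autumn.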

How the data were processed

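RNA from needles and roots was sequenced in 24 libraries. The deposited values are raw counts per feature, and the submitters' processing notes name CASAVA, HISAT2 and featureCounts; their versions, the strand setting and how multiply mapped reads were handled are not given in the sources here. Per the labels, stranded and unstranded libraries were both made, and no sample is tied to either kind. From the counts, edgeR 4.0.16 in R 4.3.3 (quasi-likelihood test, robust, TMM, filterByExpr with a minimum count of 10 and total of 15) was fitted to all features, per organ (11 libraries) for season and site and over 22 libraries for organ, with 1 mean per group. P-values were adjusted by Benjamini-Hochberg over all features tested, with 0.05 as the threshold. Standard errors are the log2 fold change divided by the root of the F statistic. DESeq2 1.42.0 and limma 3.58.1 served in alternatives. The test was checked on simulated counts.

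The hormone features, pathway lists and marker lists were chosen with earlier results of these data known. Name matching ignored case; with capital letters as in the rule 180 features were taken. Features named in the text are those with an adjusted p under 0.05, a log2 change of at least 1, a mean of 5 CPM or more where the level was higher, and 1 direction in every tree (up to 20 per season or organ comparison; up to 8 per site or season by organ comparison, without the fold rule), plus the most strongly expressed feature of each role; others were named after their values were seen. Results of 1 item are not reported here.

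Replicate numbers pair libraries through the tree they name, per the labels. Deviations from group means correlated at 0.244 to 0.544 between seasons in needles of 4 trees and −0.315 in the Yunquera tree numbered 1, and at 0.165 to 0.359 in roots of 5 trees. Labels say the 6 trees were independent, while the design text speaks of a larger number of individuals at each harvest, so pooling cannot be told apart from single trees. Libraries of a group differed beyond counting noise in every pair. Coordinates are positions on the files' own reference sequences.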

Additional observations from a re-analysis of the deposited data

Results flagged for a closer look

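A pair of features passed the test of whether the season change differed between needles and roots. Of 91 features tested, 2.2% passed, against 3.73% of all features. The calls held in 7 (ap_22415) and 6 (Gene_21298) of 22 fits that each left out a library. Neither held with the tree as a block (adjusted p of 0.136 for ap_22415 and 0.144 for Gene_21298). With all 24 libraries the adjusted p was 0.121 for ap_22415 and 0.105 for Gene_21298. The cytokinin hydroxylase Gene_21298 had a difference of 7.20 on the log2 scale (edgeR adjusted p = 0.0401), a fitted value that depends on the prior count because its 3 autumn needle libraries from Yunquera held no read. The auxin carrier ap_22415 had a difference of 1.85 (edgeR adjusted p = 0.043). Its spring over autumn change was 1.66 ± 0.28 in needles and -0.15 ± 0.38 in roots. The root value averages opposite changes at the sites. Root means were 12.5 CPM in spring and 39.9 CPM in autumn at Ronda, and 21.5 and 8.43 CPM at Yunquera. The seasons did not overlap at either site, and the difference between the sites was not tested. Groups of 3 or fewer libraries were too small for a test of single deviating libraries.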

How the results depend on the processing

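Of 1607 values of named features under an alternative, 1443 kept their direction and their side of the threshold, 164 no longer passed and 0 reversed. Most of these features had been chosen for passing with 1 direction in every tree, so the lack of reversals is no independent support. With all 24 libraries as labelled, 0 features were called for site in autumn needles, 5 for organ in spring and 0 for season by organ. DESeq2 called 17 for season in roots, 16 for site in autumn needles, 1 for site in spring needles, 2 for site in autumn roots and 7 for season by organ. Season by organ gave 0 calls without the low-count filter and 1 without the needle libraries of the Yunquera tree numbered 1. With the replicate block (tree), 2 features were called for season in roots, 1 for site in autumn needles and 0 for season by organ; with the block and without the needle libraries of the Yunquera tree numbered 1, an alternative chosen after seeing the data, 34 were called for season in needles and 0 for season by organ. The blocked counts of 13 for season in needles, 44 for organ in autumn and 26 for organ in spring stayed within 1.5 times the values in the text. Leaving out 1 library at a time gave 12 to 20 calls for season in needles, 2 to 8 for season in roots, 0 to 5 for site in autumn needles, 37 to 47 for organ in autumn, 23 to 34 for organ in spring and 0 to 5 for season by organ, and 0 for the other site comparisons. For the site and organ comparisons these fits include ones that left out a library of the season not compared. RLE scaling, a stricter filter and name matching with capital letters moved none of the 9 counts by over 1.5 times. Each site group holds 2 or 3 libraries, which limits the site comparisons. The cause of these shifts was not tested.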
